A study of Mus musculus with 2 samples.

Results

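Erythroid barcodes led by hemoglobin were examined in droplet-based single-cell transcriptomes of the embryonic mouse brain. A barcode, the tag that marks the RNA of one droplet, was taken when UMIs of Hba-a1, Hba-a2, Hba-x, Hbb-bs, Hbb-bt, Hbb-bh1 and Hbb-y together exceeded 50% of its UMIs, with no minimum number of genes. Each UMI stands for 1 transcript molecule caught in the droplet. The rule found 125 of 4301 barcodes, namely 58 of 1712 in replicate 2 and 67 of 2589 in replicate 4. These were 3.39% of barcodes in replicate 2, with exact binomial (Clopper-Pearson) 95% limits of 2.58% and 4.36%, and 2.59% in replicate 4, with limits of 2.01% and 3.27%. Because the barcodes were chosen by their measured hemoglobin UMIs, the share of hemoglobin in these barcodes is described here and not tested. Intervals of this kind cover counting error only.

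Both libraries carried the genotype label WT, the line name EomesDot and the tissue label of brain hemispheres, and came from embryonic day 14.5. Their protocol names the dorsal telencephalon as the part dissociated, which is narrower than the tissue label. The study's methods name C57BL/6J mice, and how that background relates to the line name is not stated. The libraries were made with a 10x Genomics kit that captures transcript 3′ ends and were named replicate 2 and replicate 4 after their titles. The study states how many dorsal telencephalons its data of this age hold in all, but not how they were divided among libraries, and both titles share a number that is not explained. Labels and methods thus do not say whether the libraries came from separate embryos or litters. Xist, which coats the inactive X chromosome, had 4 UMIs in replicate 2 and 40597 in replicate 4 outside the hemoglobin-led barcodes. The libraries were therefore not repeats of the same cells, though the sex of the embryos is not stated. P-values below measure only the spread between these libraries, part of which may be technical. With 1 group there was no treatment or genotype to compare. Total depth was 40267872 and 49422007 UMIs. Barcode sequences found in both libraries numbered 3, and none of them belonged to a hemoglobin-led barcode. Members of the rule are cells of the same library and were never used as replicates.

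Red blood cells carry oxygen on hemoglobin, which joins alpha-type and beta-type globin chains around heme. In the mouse embryo, primitive erythroid cells from the yolk sac enter the circulation first and make embryonic globins, the alpha-type Hba-x and the beta-type Hbb-y and Hbb-bh1. Definitive erythroid cells, which come mainly from the fetal liver, make the adult chains Hba-a1, Hba-a2, Hbb-bs and Hbb-bt. As erythroid cells mature they stop dividing, lose the nucleus and later clear ribosomes and mitochondria, while transcripts for globin, heme synthesis and iron handling persist. Brain tissue that is not perfused holds such cells in its vessels.

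The embryonic genes stand first in each globin cluster. On GRCm38.p6, Hba-x (chr11:32276600-32278116) precedes Hba-a1 (chr11:32283672-32284486) and Hba-a2 (chr11:32296492-32297310). On the reverse strand of chromosome 7, Hbb-y (chr7:103851754-103853207) and Hbb-bh1 (chr7:103841638-103843162) precede Hbb-bs (chr7:103826523-103827928) and Hbb-bt (chr7:103812524-103813923) in the direction of transcription. The 120 bases before the start are shown for 1 embryonic and 1 adult gene of each chain, since these genes separate the barcodes described below. They were read 5′ to 3′ on the gene strand from RefSeq promoters of GRCm38.p6, at chr11:32276480-32276599 and chr11:32283552-32283671 on the forward strand, and at chr7:103853208-103853327 and chr7:103827929-103828048 on the reverse strand. Capitals mark the letters CACCC and CCAAT on either strand, the letters GATAA or GATAG after an A or a T on either strand, and ATAAAA or ATATAA on the gene strand.
Hba-x: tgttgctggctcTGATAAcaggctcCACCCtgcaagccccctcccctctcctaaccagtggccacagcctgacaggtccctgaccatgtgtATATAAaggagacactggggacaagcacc
Hba-a1: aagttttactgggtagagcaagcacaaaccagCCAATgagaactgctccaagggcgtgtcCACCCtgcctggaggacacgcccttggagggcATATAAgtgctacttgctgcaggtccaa
Hbb-y: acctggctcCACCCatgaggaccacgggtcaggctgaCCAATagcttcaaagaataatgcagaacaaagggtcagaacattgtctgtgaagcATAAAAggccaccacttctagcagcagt
Hbb-bs: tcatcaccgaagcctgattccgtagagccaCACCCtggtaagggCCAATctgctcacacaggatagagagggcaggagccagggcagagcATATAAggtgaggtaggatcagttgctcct
Each of the 4 windows held CACCC and a TATA-like motif. CCAAT was in Hba-a1, Hbb-y and Hbb-bs, whereas a GATA motif, the third of these, was in Hba-x. Among 32851 promoter windows of the same length, 31.7% held CACCC, 21.3% CCAAT, 12.8% a GATA motif and 7.31% a TATA-like motif. These are matches of letters and not measured binding. Hbb-bh1 is named only. Over the last 300 bases of the longest GENCODE transcripts, where reads of this kit lie, identity over aligned columns, gaps included, was 86.02% between Hba-a1 and Hba-a2, 80.6% between Hbb-bs and Hbb-bt and 71.8% between Hbb-bh1 and Hbb-y, against 64.9% between Hba-x and Hba-a1 and 61.1% between Hbb-y and Hbb-bs. The split of reads within each adult pair is therefore less certain than the split between embryonic and adult genes.

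The hemoglobin-led barcodes differed in depth between the libraries. Total UMIs per barcode ran from 506 through a median of 872 to 32803 in replicate 2, and from 595 through 6712 to 30754 in replicate 4. Hemoglobin made up a median of 72.7% of UMIs in replicate 2 and 92.6% in replicate 4. A share above 90% was found in 15 of 58 and 46 of 67 barcodes. Replicate 4 thus held mostly deep barcodes far above the threshold, and replicate 2 mostly shallower ones at a wider range of shares. Under 1000 hemoglobin UMIs were found in 38 of 58 barcodes of replicate 2 and in 9 of 67 of replicate 4. The 20 deeper barcodes of replicate 2 still held 93.4% of its 282755 hemoglobin UMIs, and replicate 4 held 595902. Outside hemoglobin, barcodes had a median of 235 UMIs in replicate 2 and 540 in replicate 4, and the median number of detected genes was 189.5 and 254.

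Just inside the threshold, the lowest shares were 50.4%, 51.5% and 53.5% in replicate 2, and 66.9%, 68.0% and 72.2% in replicate 4. Just outside it, the highest were 46.2%, 44.99% and 42.8% in replicate 2, and 44.2%, 39.4% and 27.9% in replicate 4. Replicate 2 had barcodes on either side of the threshold, whereas replicate 4 had none between 44.2% and 66.9%. A single hemoglobin-led barcode, at 51.5% in replicate 2, had more than 1000 genes (1296, from 5331 UMIs). It is followed through the results below because it also held embryonic globin.

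**Figure D1:**
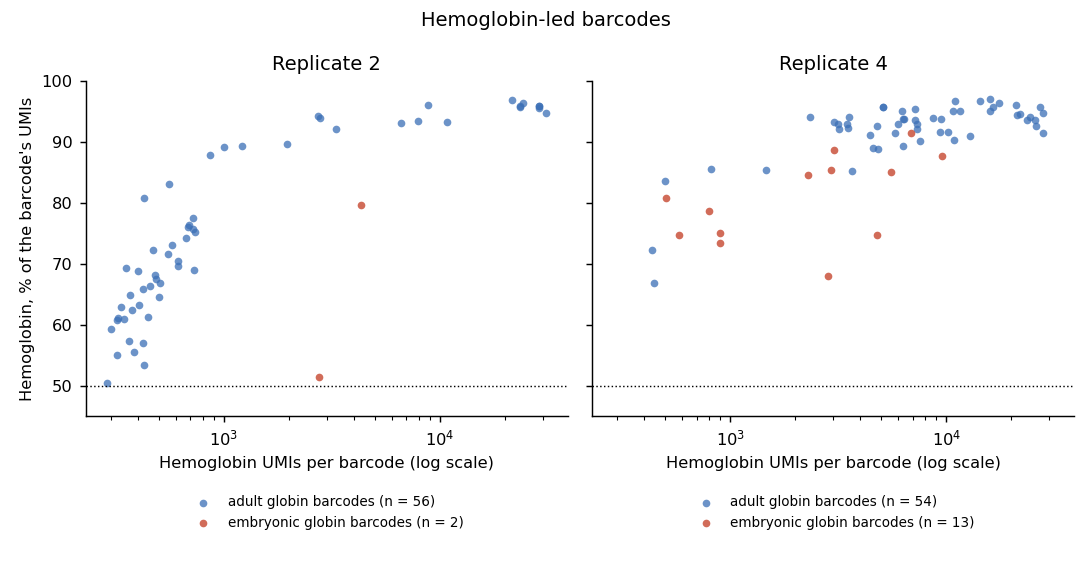
Share of hemoglobin in each barcode's UMIs (y, percent) against its hemoglobin UMIs (x, log scale) for the hemoglobin-led barcodes of each library. Points are barcodes, red where embryonic globins reach 10% of hemoglobin UMIs and blue otherwise, and the dotted line is the threshold of 50%. Replicate 2 has 38 barcodes under 1000 hemoglobin UMIs and replicate 4 has 9.

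Embryonic and adult globins separated the barcodes into groups with nothing between them. Embryonic globins made up at least 10% of hemoglobin UMIs in 15 barcodes, called embryonic barcodes here. These were 2 of 58 in replicate 2 (3.45%, interval 0.420% to 11.9%) and 13 of 67 in replicate 4 (19.4%, 10.8% to 30.9%). Their embryonic share was 58.4% and 69.5% in replicate 2, and from 41.1% through a median of 68.4% to 79.9% in replicate 4. In the 110 others, called adult barcodes here, it was at most 0.52%, and 29 of these had any embryonic UMI. No barcode lay between 0.52% and 41.1%. Over all hemoglobin-led barcodes of a library, embryonic globins were 1.57% of hemoglobin UMIs in replicate 2 and 4.62% in replicate 4 (3.098% ± 2.16, SD, n = 2 libraries). This pooled share follows the number of embryonic barcodes, and the SD is close to the mean.

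Hbb-y, the beta-type embryonic globin, was the most abundant globin of the embryonic barcodes, with 48.4% of their hemoglobin UMIs in replicate 2 and 55.8% in replicate 4 (52.1% ± 5.28). Hba-x, the alpha-type embryonic globin, was at 14.3% and 10.4% (12.3% ± 2.76). The adult alpha genes were also abundant there, Hba-a1 at 22.03% and 17.8% (19.9% ± 2.99) and Hba-a2 at 10.8% and 11.3% (11.0% ± 0.366). The adult beta genes were scarce, Hbb-bs at 1.88% and 2.11% (1.997% ± 0.165) and Hbb-bt at 2.63% and 2.48% (2.56% ± 0.106). Hbb-bh1, a further embryonic beta gene, was at 0.0283% and 0.0820%, with UMIs in 7 of 15 barcodes. The embryonic barcodes thus had embryonic beta chains but a mixture of embryonic and adult alpha chains. These are shares of pooled UMIs, and single barcodes differed in order. Of the 2 barcodes of replicate 2, 1 had Hba-x at 26.5% and Hba-a1 at 15.9%, and in replicate 4 Hba-x ranged from 4.64% to 49.7% and Hbb-y from 29.1% to 71.6%.

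The chains were set side by side within each embryonic barcode. Embryonic genes held 87.7% to 98.5% of beta-type UMIs, with a median of 93.6% over 15 barcodes. Hba-x held 10.0% to 70.6% of alpha-type UMIs, with a median of 25.9%. The beta share was high in all 15 barcodes, whereas the alpha share spread widely. In the adult barcodes both shares were under 1%, at most 0.483% for beta and 0.847% for alpha.

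**Figure D2:**
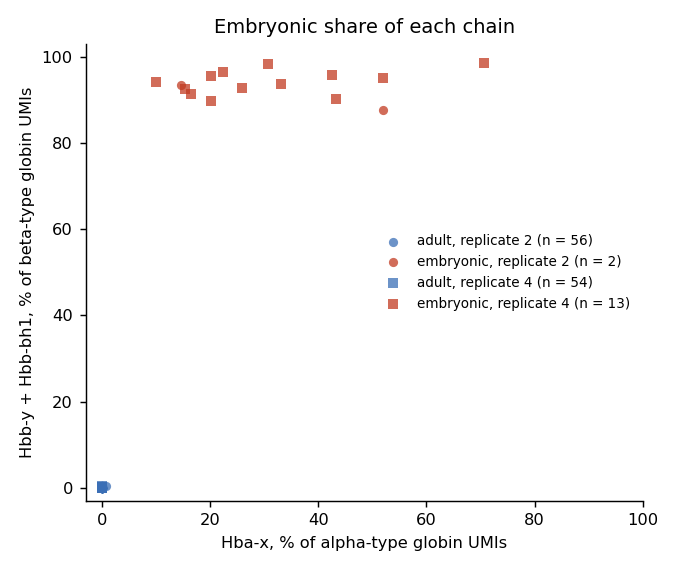
Embryonic share of beta-type globin UMIs (y, percent) against the share of Hba-x among alpha-type globin UMIs (x, percent), 1 point per hemoglobin-led barcode, with circles for replicate 2 and squares for replicate 4. The 15 embryonic barcodes (red) lie between 87.7% and 98.5% on y and spread from 10.0% to 70.6% on x, while the 110 adult barcodes (blue) lie near the origin.

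In the adult barcodes Hbb-bs, an adult beta gene, led in both libraries. It held 43.0% and 44.9% of hemoglobin UMIs (44.0% ± 1.35), Hbb-bt 19.2% and 20.7% (19.97% ± 1.08), Hba-a1 20.7% and 18.7% (19.7% ± 1.43) and Hba-a2 17.1% and 15.6% (mean 16.4%). Hbb-bt and Hba-a1 changed places between the libraries and did not differ beyond that spread. Hbb-y was at 0.00435% and 0.00325%, and Hba-x was found as 1 UMI in each library. Hbb-bh1 had no UMI in adult barcodes of replicate 2 and 30 in those of replicate 4, in 5 barcodes, and 26 of the 30 were in 1 barcode of 26119 hemoglobin UMIs. Of the 34 in embryonic barcodes of replicate 4, 29 were likewise in 1 barcode. Alpha-type genes together held 38.0% of hemoglobin UMIs in replicate 2 and 34.7% in replicate 4 over all hemoglobin-led barcodes (36.4% ± 2.35). The theta-type globins Hbq1a and Hbq1b, which the rule did not use, had 7 and 2 UMIs in replicate 2 and 10 and 13 in replicate 4, and they resemble each other closely, so their split is uncertain. Hbb-bh2 had no UMI.

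Hemoglobin in the barcodes outside the rule was compared in makeup. Barcodes with under 1% hemoglobin, 1635 in replicate 2 and 2427 in replicate 4, held 7729 and 14097 hemoglobin UMIs, which is 0.0194% and 0.0290% of their UMIs. Embryonic globins were 21.0% of these in replicate 2 and 8.03% in replicate 4. In replicate 2, 2 barcodes with more than 300000 UMIs held 3299 of the 7729, at 40.0% embryonic. Without them the share in replicate 2 was 6.86%. The pooled hemoglobin of the hemoglobin-led barcodes was at 1.57% and 4.62%, each below the value of the same library. With every hemoglobin-led barcode weighed equally, the mean share was 2.24% in replicate 2 and 13.04% in replicate 4, so in replicate 4 the direction turned. The difference was not tested, and the hemoglobin-led shares rest on only 2 and 13 embryonic barcodes.

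**Figure D3:**
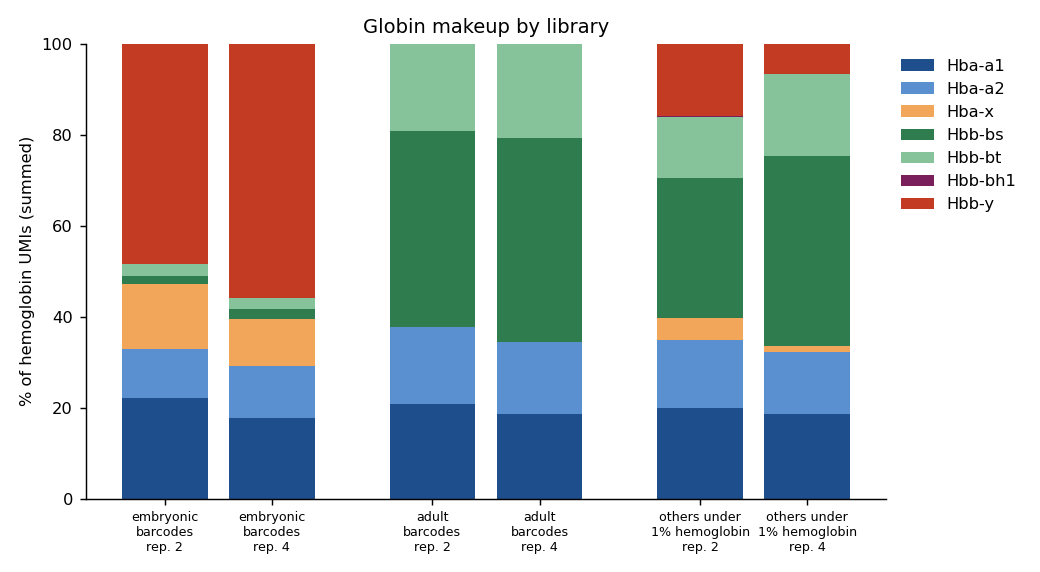
Makeup of hemoglobin UMIs (y, percent, summed over barcodes, bars add to 100) in embryonic barcodes, adult barcodes and other barcodes with under 1% hemoglobin, for each library. Hbb-y fills 48.4% and 55.8% of the embryonic bars and is not visible in the adult bars, and the other barcodes show both sets of genes.

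The erythroid label was read beside transcripts outside hemoglobin, which the rule did not use. Alas2, the erythroid enzyme of the first step of heme synthesis, was at 9212 CPM in replicate 2 and 13947 CPM in replicate 4, against 7.18 and 7.37 CPM in the other barcodes. These levels are a description, since Alas2 passed the filter of the test below only through the hemoglobin-led barcodes. CPM here are UMIs per 1000000 UMIs outside the 7 globins. Since CPM are shares, more of one transcript and fewer of the rest cannot be told apart. Thinned to 200 UMIs outside hemoglobin, 42.6% of 47 hemoglobin-led barcodes in replicate 2 (28.3% to 57.8%) and 75.4% of 61 in replicate 4 (62.7% to 85.5%) had an Alas2 UMI, after 11 and 6 shallower ones were left out. Of the other barcodes 0.181% and 0.238% had one, which is the background level. Unthinned, the shares were 46.6% and 82.1%, against 14.0% and 9.83% in other barcodes with median depths of 24812 and 18828.5 UMIs outside hemoglobin. Of 17 erythroid genes outside hemoglobin, 9 had no UMI in replicate 2 and 2 had none in replicate 4. Together they held 1.995% and 3.897% of the UMIs, against 0.00811% and 0.00869% in other barcodes. Markers of macrophages or microglia had 2 and 3 UMIs, megakaryocyte or platelet markers 0 and 2, and those of neutrophils or mast cells and of hematopoietic progenitors none in either library. Endothelial markers had 2 and 4 UMIs, mural cell markers 1 and none, and meningeal fibroblast markers 3 and 1. As shares, endothelial markers were at 0.00805% and 0.00877%, against 0.00705% and 0.00685% in other barcodes, and macrophage or microglia markers at 0.00805% and 0.00658%, against 0.00411% and 0.00649%. Mural cell markers were at 0.00402% and 0%, which allows up to 0.00658%, against 0.00380% and 0.00666%, and meningeal fibroblast markers at 0.0121% and 0.00219%, against 0.0127% and 0.0156%. With at most 4 UMIs a list, these shares have wide counting error.

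Across 685 genes that could be tested, 216 (31.5%) were higher and 273 (39.9%) lower in the hemoglobin-led barcodes than in all other barcodes, with a median log2 fold change of -0.37 over all genes tested. The test, edgeR's quasi-likelihood test with Benjamini-Hochberg adjustment, compared UMI sums per library, 2 sums of hemoglobin-led barcodes against 2 of other barcodes. With the globins kept in the totals the median moved by -3.62 and the split became 51 higher and 583 lower, so directions below are relative to the RNA outside hemoglobin. Since a gene rare in brain cells passed the filter only through the hemoglobin-led sums, a count of such genes that rose, or the p of one of them, describes them and supports nothing further. Alas2 is one of these genes (log2 fold change 10.53, SE 0.47, adjusted p = 2.60e-04, edgeR). Neural markers, described below, were also present in the sums. Among barcodes with at least 1000 hemoglobin UMIs, 143 genes were higher and 219 lower.

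Genes of heme synthesis and iron handling rose where they could be tested. Of 14 heme genes, 4 could be tested and all 4 were higher, where 31.5% of all genes tested were, with a median log2 fold change of 6.11. Besides Alas2 these were Fech, which inserts iron into the ring as the last step (7.59, with 2896 and 4079 CPM against 16.7 and 17.2 CPM), and Alad and Urod, enzymes of intermediate steps (4.63 and 4.47). Alad had 7 UMIs in replicate 2 and 69 in replicate 4, and Urod 5 and 35. Being rare in other barcodes, Alas2, Fech and Alad passed the filter only through the hemoglobin-led barcodes, so the count of 4 describes them. Slc25a38, the mitochondrial glycine carrier, had none. Of 9 iron genes, 3 could be tested and were higher, too few to set against that share. Slc25a37, which carries iron into mitochondria, was at 4345 CPM in replicate 2 and 6294 CPM in replicate 4, against 3.75 and 5.28 CPM (log2 fold change 10.09, SE 0.48, adjusted p = 2.65e-04, edgeR). The ferritin chains that store iron were the most abundant, Ftl1 at 55636 CPM in replicate 2 and 63113 CPM in replicate 4 against 1456 and 1499.9 CPM (log2 fold change 5.21, SE 0.28, adjusted p = 3.29e-04, edgeR), and Fth1 rose by a log2 fold change of 5.67. Tfrc, the transferrin receptor that takes up iron, was by contrast found as 0 and 3 UMIs, and Slc40a1, the iron exporter, as none.

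Of 22 genes of the red cell membrane, 4 could be tested and all 4 rose, where 31.5% of all genes tested were higher. The 4 were too rare in other barcodes to pass the filter without the hemoglobin-led ones, so their count is a description. Slc4a1, the anion exchanger band 3, had 5 UMIs in replicate 2 and 57 in replicate 4, against 2 and 5 in all other barcodes (log2 fold change 13.13, SE 1.03, adjusted p = 7.51e-04, edgeR). This was the largest fitted rise among genes with at least 20 UMIs, and it rests on few UMIs in replicate 2. Epb41, the cytoskeletal protein 4.1, rose by a log2 fold change of 3.85, little more than the shift of -3.62 in the median with globins in the totals. Bsg, the carrier of the Ok blood group, rose by 3.56, but with globins in the totals its value was -0.10. Sptb, a spectrin chain of the membrane skeleton, had 1 UMI in replicate 2 and 9 in replicate 4.

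Redox and metabolic genes of red cells rose in 10 of 10 tested among 15, where 31.5% of all genes tested were higher, with a median log2 fold change of 6.82. Most of the 10 were too rare in other barcodes to pass the filter without the hemoglobin-led ones, so this count is a description. Gpx1, which reduces hydrogen peroxide with glutathione, was at 10339 CPM in replicate 2 and 20943 CPM in replicate 4, against 86.4 and 84.7 CPM (log2 fold change 7.42, SE 0.55, adjusted p = 6.98e-04, edgeR). Bpgm, which makes the 2,3-bisphosphoglycerate that lowers the oxygen affinity of hemoglobin, rose by 8.07 and Blvrb, a biliverdin reductase, by 9.28. Prdx2, an abundant peroxiredoxin of red cells, rose by 3.70 from a higher level in the other barcodes (1049 and 1057 CPM). That rise is also little more than the shift of -3.62 in the median with globins in the totals. Car2, a carbonic anhydrase, rose by 7.99 with 17 and 160 UMIs. Log2 fold changes in this list ran from 3.40 for Nt5c3 to 9.28 for Blvrb, and the chaperone gene Ahsp was not analysed here.

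Genes of late maturation, which take part in ubiquitin tagging, autophagy and loss of the nucleus, rose in 11 of 13 tested among 25, where 31.5% of all genes tested were higher, and 2 did not pass the test (median 3.91). Most of the 11 were too rare in other barcodes to pass the filter without the hemoglobin-led ones, so this count is a description. Mkrn1, a ubiquitin ligase, was at 8890.5 CPM in replicate 2 and 11710.3 CPM in replicate 4, against 88.7 and 91.00 CPM (log2 fold change 6.73, SE 0.35, adjusted p = 3.16e-04, edgeR). Bnip3l, the receptor for clearance of mitochondria in reticulocytes, rose by 5.08. Ube2l6 and Tent5c, a ubiquitin-conjugating enzyme and a poly(A) polymerase, rose by 10.56 and 10.87. Ubb, a ubiquitin gene, rose by 3.36, and its value was -0.25 with globins in the totals. By the size of the fold, Slc4a1, Tent5c, Tspo2, Ube2l6, Alas2, Slc25a37, Blvrb and Gm16867 were among the 10 leading genes that rose with at least 20 UMIs. Tspo2, an erythroid cholesterol-binding protein, rose by 10.57.

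Transcription factors had few UMIs. The 9 erythroid factors had 4 UMIs in replicate 2 and 39 in replicate 4, and none could be tested. Their share of 0.0161% and 0.0855% was nevertheless above the 0.00731% and 0.00795% of other barcodes. Gata1, the central erythroid factor, had 0 in both libraries, Klf1 had 1 and 5, Tal1 1 and 10, and Lmo2 0 and 13. Gata1 at 0 of 24858 and 45601 UMIs allows a share of up to 0.0121% and 0.00658%. Of the regulators of globin switching, Bcl11a and Sox6, which silence embryonic beta-type globin in definitive cells but are also made by cortical neurons, could be tested and were lower. Bcl11a had 4 and 1 UMIs (log2 fold change -3.45, SE 0.54, adjusted p = 0.00402, edgeR), and Sox6 had 0 and 3, which is 18.7-fold lower (counting interval 6.38 to 90.5) than in the other barcodes. Zbtb7a, Klf2, Lin28b, Igf2bp1, Igf2bp3 and Myb had none.

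Most genes of dividing cells were not abundant enough to test. Of 20 cell cycle genes, 4 could be tested. Ube2c, a ubiquitin-conjugating enzyme of mitosis, rose by a log2 fold change of 4.25, with 39 and 163 UMIs. Stmn1 and Hmgb2 were lower (-1.22 and -0.88), and Hmgb2 missed the threshold with the library as a block (adjusted p = 0.136). The proliferation marker Mki67 had 1 and 8 UMIs, and Top2a 1 and 2.

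Ribosomal protein genes rose in 25 of 78 tested among 83, close to the 31.5% of all genes tested, and none fell. They had a median log2 fold change of 0.40, against -0.37 over all genes tested. Together they held 16.5% and 16.4% of UMIs outside hemoglobin, against 9.37% and 8.33% in other barcodes. Of 13 mitochondrially encoded genes, 9 could be tested, none rose and 5 fell, where 39.9% of all genes tested were lower (mt-Cytb, mt-Nd1, mt-Nd2, mt-Nd3 and mt-Nd4, at -1.22, -1.62, -1.81, -1.74 and -0.90). Their summed share was 2.66% and 3.49%, against 3.14% and 3.62%. Complex I genes were thus 4 of the 5 that fell, while mt-Co1 and mt-Co3, subunits of cytochrome c oxidase, did not pass the test (1.19 and -0.11).

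Of 6 nuclear long RNAs, Malat1 and Xist could be tested, and Malat1 fell. Malat1, an abundant nuclear RNA, held 0.322% and 0.561% of UMIs outside hemoglobin, against 1.27% and 1.21% in the other barcodes (log2 fold change -1.58, SE 0.37, adjusted p = 0.01501, edgeR). Against only those other barcodes with under 1000 genes its value was 0.34 and did not pass the test. Neat1, an RNA of nuclear paraspeckles, had 1 and 8 UMIs, too few to test, or 0.00402% and 0.0175% (0.00757% to 0.0346% in replicate 4), against 0.000426% and 0.000392% in other barcodes, and all of them were in embryonic barcodes. Xist, which coats the inactive X chromosome, was nearly confined to replicate 4 among other barcodes, with 4 and 40597 UMIs. In replicate 4, hemoglobin-led barcodes had 1 Xist UMI, which is 0.00219% (5.55e-05% to 0.0122%), against 0.0833% in other barcodes, and the test did not call it (log2 fold change -5.03, SE 5.85).

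The genes with the largest falls had almost no UMIs in hemoglobin-led barcodes. Lrrc7, Grip1, Negr1, Foxp1, Atrnl1 and Opcml, which include synaptic scaffold and cell adhesion genes, had no UMI in any hemoglobin-led barcode. Against a floor of 3 UMIs over both libraries they were at least 14.4-, 14.4-, 14.1-, 12.6-, 10.4- and 9.96-fold lower. Nedd4l, Sorbs2 and Cadm2 had 1 UMI each, and Robo2, an axon guidance receptor, had 2, which is 59.5-fold lower (counting interval 16.5 to 491) than in the other barcodes. Whether reads within introns were counted is not stated, and the version of the counting software used counts them unless told otherwise. Of 12 excitatory neuron markers, 7 could be tested, none rose and 5 fell, where 39.9% of all genes tested were lower, among them Map1b at -2.89 and Tubb3 at -1.24. Of 10 radial glia markers, 3 could be tested and 2 fell (Vim at -1.38 and Dbi at -1.11), too few to set against that share.

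**Figure D4:**
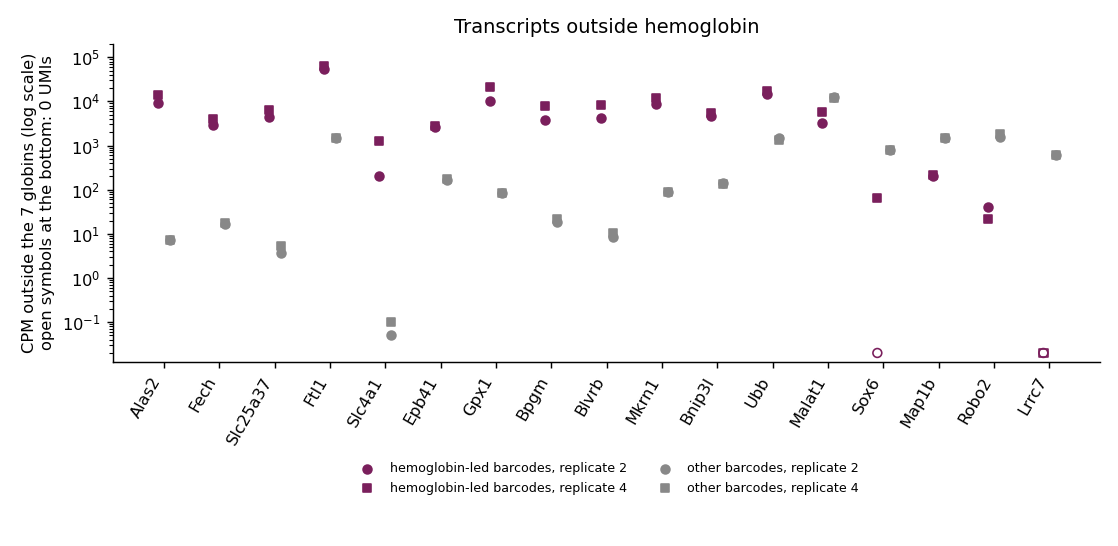
CPM outside the 7 globins (y, log scale) of named genes in hemoglobin-led and other barcodes, with circles for replicate 2, squares for replicate 4 and open symbols at the bottom for 0 UMIs. Heme, iron, membrane and maturation genes lie above the other barcodes in both libraries (Ubb only with globins left out of the totals), Malat1 and the neural genes to the right lie below them, and Lrrc7 is at 0.

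Shallow barcodes differed from deep ones in the RNA outside hemoglobin. Markers of excitatory neurons, radial glia, intermediate progenitors and GABAergic neurons together were 0.746% and 0.618% of these UMIs in barcodes under 1000 hemoglobin UMIs, 0.0929% and 0.251% in deeper ones and 1.01% and 0.966% in other barcodes. Alas2 was 0.218% and 0.225% in the shallow barcodes and 1.30% and 1.44% in the deep ones. Of the 9 shallow barcodes of replicate 4, 5 were embryonic barcodes, which held no Alas2 UMI and 9 of the 11 neural UMIs. Among adult barcodes alone, Alas2 was 0.218% in 38 shallow and 1.66% in 18 deep barcodes of replicate 2, and 0.642% (4 of 623 UMIs) in 4 shallow and 1.70% in 50 deep ones of replicate 4. Neural markers were 0.746% and 0.0723% in shallow and deep adult barcodes of replicate 2, but 0.321% (2 UMIs) and 0.213% in those of replicate 4. Tmsb4x, an actin-binding gene abundant in brain cells, was at 13318 and 6745 CPM in shallow barcodes, 1115 and 3400.1 CPM in deep ones and 5766 and 4678 CPM in other barcodes. In replicate 2, shallow barcodes were thus nearer to the other barcodes in neural markers and held less Alas2, whereas in replicate 4 depth and embryonic globin came together. The part of this in the differences above was not tested. Over hemoglobin-led barcodes, Spearman's rho of hemoglobin UMIs with UMIs outside hemoglobin was 0.503 in replicate 2 (n = 58) and 0.786 in replicate 4 (n = 67), where barcodes of a library share its depth. Gm42418, which overlaps a ribosomal RNA repeat, was at 41757 and 31315 CPM, against 1959 and 1658 CPM.

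Embryonic barcodes were then set against adult ones for all transcripts outside hemoglobin, a comparison added after the globin values had been seen. The embryonic sums held 3697 and 8371 UMIs outside hemoglobin, and the adult sums 21161 and 37230. Of the 3697 in replicate 2, 2587 came from the barcode with 1296 genes. Of 400 genes tested, 22 (5.50%) were higher and 38 (9.50%) lower in embryonic barcodes, with a median log2 fold change of -0.28. With the library as a block, which pairs sums of the same library, 16 were higher and 15 lower. Without the barcode of 1296 genes, 7 were higher and 27 lower. When all 6337 genes with a UMI entered the test, Tnfrsf23 was the 1 gene called, and 269 genes had an unadjusted p under 0.05.

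Some transcripts of late maturation were lower in embryonic barcodes. Mkrn1 had 1 and 3 UMIs in embryonic barcodes of replicates 2 and 4, against 220 and 531 in adult barcodes (log2 fold change -5.00, SE 0.92, adjusted p = 3.38e-06, edgeR). It was found in 51 of 54 adult barcodes of replicate 4, and over both libraries in 78 of 110 adult and 3 of 15 embryonic barcodes. Riok3, a kinase of late maturation, and Tspo2 had no UMI in embryonic barcodes and were at least 5.86- and 5.17-fold lower. Of 16 genes of late maturation tested among 25, 5 fell and none rose (median -2.14), where 9.50% of all genes tested were lower. They included Mkrn1, Riok3, Bnip3l and Gabarapl2, and the other 11 did not pass the test. The 5 passed the filter only through adult barcodes, so their count describes them. With the block the adjusted p was 0.134 for Bnip3l and 0.09295 for Gabarapl2, and neither passed.

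Some heme and membrane genes were also lower. Alas2 had 3 and 9 UMIs in embryonic barcodes of replicates 2 and 4, against 226 and 627 in adult barcodes (log2 fold change -3.58, SE 0.78, adjusted p = 1.41e-04, edgeR), and was still 943.3 ± 186 CPM there, far above the 7.28 CPM of other barcodes. Fech had 0 and 2 UMIs in embryonic barcodes of replicates 2 and 4, against 72 and 184 in adult barcodes, which is 26.5-fold lower (counting interval 7.25 to 219.6). Of 5 heme genes tested 2 fell and none rose, of 5 membrane genes 2 fell, among them Bsg, and of 3 iron genes Slc25a37 fell. Over all genes tested 9.50% were lower, and these lists are short. The genes that fell passed the filter only through adult barcodes. Slc25a37, Bpgm and Bsg missed the threshold with the block (adjusted p = 0.0566, 0.102 and 0.0762). Slc4a1 had 1 and 4 UMIs in embryonic barcodes of replicates 2 and 4, against 4 and 53 in adult barcodes, a difference that did not pass the test (-0.83). Ube2c was also lower, with 0 and 2 UMIs in embryonic barcodes of replicates 2 and 4, against 39 and 161 in adult barcodes.

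Differences in iron storage and most redox genes did not pass the test, which does not show that the groups were alike. Ftl1 was at 36787 and 41333 CPM in embryonic barcodes and 58929 and 68009.7 CPM in adult ones, and Fth1 at 48959 and 37629.9 CPM against 23298 and 41848 CPM. The log2 fold changes were -0.38 (SE 0.47) and 0.79 (SE 0.49). Gpx1 and Prdx2 were at -1.48 and -1.50 (adjusted p = 0.0925 and 0.0908, edgeR), and both passed among barcodes with at least 1000 hemoglobin UMIs. Of the 67 Gpx1 UMIs in embryonic barcodes, 46 were in 1 barcode of replicate 4, and 6 of 15 had any. Of 10 redox and metabolic genes tested, Bpgm alone fell, but the median of the list was -1.69. The summed share of its 15 genes was 1.03% and 2.09% in embryonic barcodes, against 3.90% and 7.35% in adult ones, and those 46 Gpx1 UMIs are among the 175 behind the 2.09%. The iron genes together were at 8.57% and 8.03%, against 8.74% and 11.7%.

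Mitochondrially encoded RNA was scarce in embryonic barcodes. It made up 0.0541% and 0.550% of their UMIs outside hemoglobin, against 3.12% and 4.15% in adult barcodes and 3.14% and 3.62% in other barcodes. mt-Co3 had 0 and 6 UMIs in embryonic barcodes of replicates 2 and 4, against 174 and 357 in adult barcodes (log2 fold change -4.09, SE 0.88, adjusted p = 1.22e-04, edgeR), and mt-Co1 had 1 and 8 UMIs in embryonic barcodes of replicates 2 and 4, against 118 and 479 in adult barcodes (-3.52). Of 8 such genes tested, 5 fell and none rose, where 9.50% of all genes tested were lower. All 8 passed the filter only through adult barcodes, so this count describes them. By barcode, the share was at most 3.91% with a median of 0.31% in the 15 embryonic barcodes, and had a median of 1.55% and a highest value of 29.1% in the 110 adult ones, so the ranges overlapped. mt-Co1, mt-Co2 and mt-Co3 passed the test with the block, whereas mt-Atp6 and mt-Cytb did not (adjusted p = 0.104 and 0.213).

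Malat1 moved the other way. It had 36 and 231 UMIs in embryonic barcodes of replicates 2 and 4, against 44 and 25 in adult barcodes (log2 fold change 3.99, SE 0.69, adjusted p = 6.61e-07, edgeR). Its share of UMIs outside hemoglobin was 0.974% and 2.76% in embryonic barcodes, against 0.208% and 0.0672% in adult ones and 1.27% and 1.21% in other barcodes. It was found in 13 of 15 embryonic barcodes, with up to 68 UMIs in 1 of them, and in 45 of 110 adult ones, with up to 7. Thinned to 200 UMIs, 9 of 11 embryonic and 7 of 50 adult barcodes of replicate 4 had a Malat1 UMI, after 2 and 4 shallower ones were left out, and unthinned 11 of 13 and 21 of 54 did. In replicate 2, 1 of 2 embryonic and 17 of 45 adult barcodes had one after thinning, and 2 of 2 and 24 of 56 before it. The thinned shares were apart in replicate 4, whereas 2 barcodes set no firm share in replicate 2. Against the other barcodes, the pooled embryonic share was lower in replicate 2 and higher in replicate 4, and the adult share was lower in both. The value of replicate 4 leans on a few barcodes, those with most holding 68, 48 and 45 of the 231 UMIs. By barcode, the median share there was 0.820% in embryonic and 0.995% in other barcodes, so the higher pooled share is no trait of the typical embryonic barcode. Excitatory neuron markers had no UMI in embryonic barcodes of replicate 2 and were at 0.179% in those of replicate 4, against 0.222% and 0.107% in adult and 0.729% and 0.693% in other barcodes. Radial glia markers were at 0.0270% and 0.203%, against 0.104% and 0.0967% in adult barcodes. Intermediate progenitor markers had 5 and 9 UMIs (0.135% and 0.108%), against 4 and 1 (0.0189% and 0.00269%) in adult barcodes. Gadd45g, which also responds to stress, gave 5 of the 5 and 6 of the 9, and Eomes, the defining marker, had none. The part of these transcripts in the Malat1 difference was not tested. Xist had no UMI in the 8371 of replicate 4, which allows a share of up to 0.0358%, against 0.0833% in other barcodes.

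The further genes that rose included the autophagy receptor Sqstm1, with 27 and 12 UMIs in embryonic barcodes of replicates 2 and 4, against 1 and 1 in adult barcodes, a ratio of 94.4-fold (counting interval 24.4 to 807). Ppp1r15a, a phosphatase subunit of the integrated stress response, had 6 and 18 UMIs in embryonic barcodes of replicates 2 and 4, against 1 and 2 in adult barcodes, a ratio of 38.7-fold (counting interval 11.8 to 201). These genes were seen in 6 and 8 of 15 embryonic barcodes, in both libraries, and passed the test without the barcode of 1296 genes (log2 fold change 6.26 and 5.31). Both passed the filter only through the embryonic barcodes and were picked by their values, so passing again describes them and supports nothing further. Lamp1, a lysosomal membrane protein, and Slc38a2, an amino acid transporter, rose by 5.80 and 6.29, and the splicing factors Srsf2 and Srsf3 and the helicase Ddx5 by 4.31, 3.85 and 3.39. All 14 Slc38a2 UMIs of replicate 2 were in 1 barcode, and 36 of the 37 UMIs of Tnfrsf23 in embryonic barcodes were in 1 barcode, so Tnfrsf23 describes that barcode only. Without the barcode of 1296 genes, Ddx5 did not pass (adjusted p = 0.126) and Lamp1, Slc38a2, Srsf2, Srsf3 and Tnfrsf23 fell under the minimum of UMIs. These genes of embryonic against adult barcodes were chosen after their values were seen.

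Ribosomal protein genes mostly did not pass the test between the groups, with 1 of 77 tested higher (Rpl13a) and none lower, and a median of 0.53 against -0.28 over all genes tested. Their summed share was 10.1% in embryonic and 17.6% in adult barcodes of replicate 2, but 20.9% and 15.4% in replicate 4. The libraries therefore differed in the sign of this difference.

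**Figure D5:**
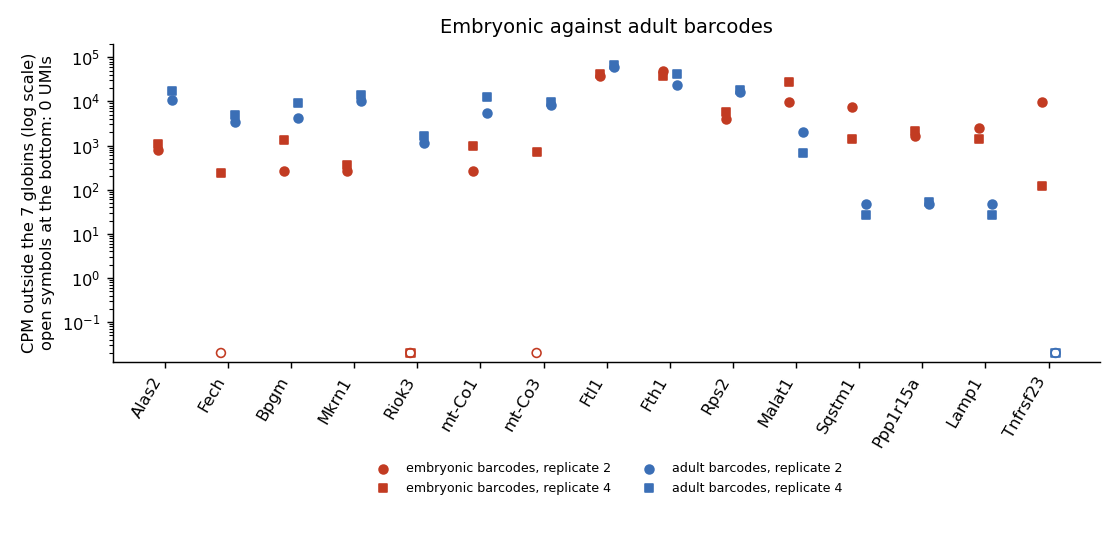
CPM outside the 7 globins (y, log scale) of named genes in embryonic (red) and adult (blue) barcodes, with circles for replicate 2, squares for replicate 4 and open symbols at the bottom for 0 UMIs. Alas2 through mt-Co3 lie lower in embryonic barcodes of both libraries, the differences of Ftl1 and Fth1 did not pass the test, and Malat1, Sqstm1, Ppp1r15a and Lamp1 lie higher.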

How the data were processed

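Single-cell transcriptomes of 2 WT libraries were deposited by the authors as raw UMI counts per gene and barcode, which per the submitters' processing notes were made with Cell Ranger 7.0.0 on mm10 (GRCm38). The deposited counts were not normalized before they were summed. All 4301 barcodes were used, and no doublet caller was run. UMIs of genes outside the 7 globins were summed per library over hemoglobin-led and other barcodes, and over embryonic and adult barcodes. Sums were compared with edgeR 4.0.16 in R 4.3.3 (TMM, quasi-likelihood test, Benjamini-Hochberg adjustment, called under 0.05). Genes were tested when their mean CPM over the 4 sums gave at least 5 UMIs in the smallest sum, or, for embryonic barcodes, with at least 20 UMIs over the sums. Standard errors are the fold change over the square root of the F statistic. On simulated data, 200 genes were changed by 2 on the log2 scale, of which 93% were recovered among 685 genes for hemoglobin-led barcodes and 47% among 400 for embryonic ones. False calls were 12 (6.06% of those called) and 8 (7.84%), above the nominal 5%. Every simulated gene was given the same assumed spread, which the data need not share. Sums of the same number come from the same library and are paired by construction, with correlations of deviations of 0.0388 and 0.0626, so the library as a block was an alternative. Genes named are those of gene lists, the 10 largest fitted changes each way among calls with 20 UMIs (20 expected UMIs for falls), and the 15 most abundant. Some genes that the rule names are not reported here. The barcodes, lists and rules were chosen with earlier results of these data known. Alternatives also used DESeq2 1.42.0, and all those for embryonic against adult barcodes were added after seeing the data.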

Additional observations from a re-analysis of the deposited data

How the results depend on the processing

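The embryonic share depended on which barcodes were taken. The 125 barcodes became 61 above 90% hemoglobin and 78 with at least 1000 hemoglobin UMIs, and 58 to 67 with 1 library left out. The 15 with embryonic globin became 1 above 90%, and 2 to 13 with 1 library left out. The embryonic share of 3.098% became 0.417% above 90%, 7.64% as a mean and 0% as a median over barcodes, and 1.57% to 4.62% with 1 library left out. The alpha share of 36.4% was 35.3% to 37.0% under the alternatives that kept both libraries. With 1 library left out it was 34.7% to 38.0%, which with 2 libraries cannot fall outside 1 SD and says nothing about stability.

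Of genes outside hemoglobin, 489 were called (216 higher, 273 lower). Counts beyond 1.5 times these were 285 (129 higher, 156 lower) above 90% hemoglobin, 143 higher with at least 1000 hemoglobin UMIs, 308 (142 lower) against other barcodes of under 1000 genes, 1635 (444 higher, 1191 lower) of 25420 genes with at least 1 UMI, 816 (516 lower) of 16174 under filterByExpr, and 51 higher and 583 lower with globins in the totals. The replicate block gave 416 (180 higher, 236 lower) and the DESeq2 Wald test 528. With 1 library left out there is no residual spread, so these counts have no such value. For embryonic against adult barcodes, 60 (22 higher, 38 lower) became 31 (15 lower) with the replicate block, 34 (7 higher) without the barcode of 1296 genes, 25 lower by DESeq2, where 101 genes had no adjusted p, and 1 (1 higher, 0 lower) with 6337 genes tested, where 269 had an unadjusted p under 0.05. The cause of these changes was not tested, except that settings with other sets of genes test other numbers of genes.

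Among 41 genes named for hemoglobin-led barcodes, 551 of 572 values kept direction and side of the threshold. With globins in the totals Bsg was at -0.10, Ubb at -0.25 and Rps2 at -0.46. Malat1 was at 0.34 against other barcodes of under 1000 genes. Among 33 genes of embryonic barcodes, 178 of 224 values kept both, and Fth1 was at -0.96 with all genes tested and at -0.15 to 1.07 with 1 library left out. Except where named beside a result, the replicate block changed no call of these genes other than Rpl13a (adjusted p = 0.157). Depth limits the embryonic barcodes of replicate 2 most, with 2 barcodes and 3697 UMIs.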

Other observations

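Barcodes with 5% to 50% hemoglobin lay outside the rule, 8 in replicate 2 and 5 in replicate 4. In replicate 4 these 5 held 51202 of the 66159 hemoglobin UMIs found outside the hemoglobin-led barcodes (77.4%), and the highest, at 44.2%, had 55911 UMIs and 6472 genes. Of the 5, 4 had at least 1000 genes, and 1 held embryonic globin at 10% or more of its hemoglobin. In replicate 2 the 8 held 25.2% of such UMIs, and none reached that embryonic share.

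The 15 most abundant genes outside hemoglobin held 24.98% and 30.3% of UMIs outside hemoglobin in the hemoglobin-led barcodes. Rps2, a protein of the small ribosomal subunit, was among them at 14201 CPM in replicate 2 and 15789 CPM in replicate 4, against 1485 and 1642 CPM in other barcodes (log2 fold change 3.14, SE 0.26, adjusted p = 9.03e-04, edgeR). Oaz1, which limits polyamine synthesis, was at 10499.6 CPM in replicate 2 and 13947 CPM in replicate 4 against 428 and 452 CPM (log2 fold change 4.68, SE 0.32, adjusted p = 5.53e-04, edgeR).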
